A study of Glycine max with 12 samples.

Results

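Soybean pods that developed at 30% of the water available for transpiration were compared with pods at 100%, with day temperature as a second term, by RNA sequencing. All 12 libraries of the series enter this comparison, 6 at the lower and 6 at the full water supply, chosen by the treatment each library carries in its label. The low-water libraries are 3 of combined stress (30% water, 38 °C day and 28 °C night) and 3 of water deficit (30% water, 28 °C day and 24 °C night). The fully watered libraries are 3 of heat stress (100% water, 38 °C day and 28 °C night) and 3 of control (100% water, 28 °C day and 24 °C night). All plants were Glycine max cultivar Magellan, inoculated with Bradyrhizobium japonicum, kept under 12 hours of light and grown for 16 to 18 days, up to the first open flower, before the treatments began. Each library was made from 10 to 15 pods pooled over 8 to 10 plants. Each condition stood in a growth chamber of its own, so that the effect of water and of chamber cannot be told apart.

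A shortage of water raises the hormone abscisic acid in plants, which closes stomata and switches on genes for protective proteins and for small solutes that hold water in the cell. Pods carry stomata and lose water themselves, and their wall feeds the growing seeds. A pod is a mixture of wall and seed tissue, and in such a mixture fewer cells of a type and less RNA per cell cannot be told apart. The tables give gene IDs without names, and none of these IDs matched the gene table used here, so no function is assigned to any gene below and the markers of pod tissues were not checked.

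Total counts ranged from 17310023 to 26591115 per library. Pearson correlations of log2 CPM (a count relative to the library total, scaled by TMM composition factors) across genes were 0.885 to 0.959 between replicates of a group. No replicates were close enough to be one library deposited again, with a chi-square per degree of freedom of 10.0 or more between any pair. Water deficit replicate 2 stood apart, at -192.4 on the first principal component (29.3% of the variance), against -57.7 to 104.4 for the other 11 libraries. Even numbers outnumbered odd ones in every library, and the cause was not tested. Water deficit replicate 2 held the most, at 87.5% of counts between 6 and 65, against 59.1 to 78.8% in the others. Counts of calls, the comparison of temperatures and the neighbours in ID order are also given without this library. The abundance classes, summed CPM, calls for temperature and extremes of the group means are given only with it. So are the counts of genes almost without counts at one water supply.

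Low water changed 413 of 38737 genes tested, or 1.07%, over both temperatures. Of these, 118 genes (0.305% of those tested) were higher and 295 (0.762%) were lower at 30% than at 100% water. The test was edgeR's quasi-likelihood test in an additive fit of water and temperature over the 12 libraries, and a gene was called at a Benjamini-Hochberg adjusted p under 0.05. The median log2 change was 1.17 among the higher and -0.94 among the lower genes, and -0.01 over all genes tested. A change of at least 2-fold was reached by 73 of the higher and 129 of the lower genes, and a change of at least 4-fold by 19 and 37. At the threshold, the 5 genes just inside had adjusted p-values from 0.0487 to 0.0499 and absolute log2 changes from 0.57 to 0.95. The 5 genes just outside had adjusted p-values from 0.0501 to 0.0508 and absolute log2 changes from 0.48 to 1.54. The unadjusted p was under 0.05 in 5021 genes (13%). In the same fit, high temperature changed 5198 genes (13.4%), of which 2243 were higher and 2955 lower at 38 °C.

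The number of calls depended on single libraries. Without water deficit replicate 2, edgeR called 839 genes, of which 337 were higher and 502 lower, and 392 of the 413 were among them. The count was 149, 134 and 162 without combined stress replicates 1, 2 and 3, 195 and 167 without heat stress replicates 2 and 3, and 225 without control replicate 1. The other 5 fits that left out a library gave between 300 and 603 calls. One mean per group in place of the additive fit, with the water effect averaged over temperatures, called 1114 genes, 411 of the 413 included.

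A set of 109 genes was called in the full fit and in each of the 12 leave-one-out fits, 16 of them higher and 93 lower. The 16 higher genes had a median log2 change of 1.30 (range 0.78 to 4.98), and 13 changed at least 2-fold. The 93 lower genes had a median of -1.30 (range -10.57 to -0.55), and 66 changed at least 2-fold. In 12 of the 16 the lowest of the 6 low-water libraries lay above the highest of the 6 fully watered ones. In 61 of the 93 the highest low-water library lay below the lowest fully watered one. Over all genes tested, such a gap was found upward in 98 genes (0.253%) and downward in 234 (0.604%). These counts describe genes that the same libraries selected.

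Genes of every abundance class were called, and the share called rose with abundance. In the most abundant class, at 100 CPM or more on average, 10 of 1502 were higher and 38 were lower, 3.20% in all. Between 10 and 100 CPM, 58 of 17467 were higher and 174 lower (1.33%). Between 1 and 10 CPM, 49 of 14971 were higher and 78 lower (0.848%), and under 1 CPM, 1 of 4797 was higher and 5 were lower (0.125%). The median absolute log2 change of the called genes ran the other way, from 0.71 at 100 CPM and above to 4.86 under 1 CPM. Low counts need a larger change to be called. Among the 100 most abundant genes, 2 rose and 2 fell.

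**Figure D1:**
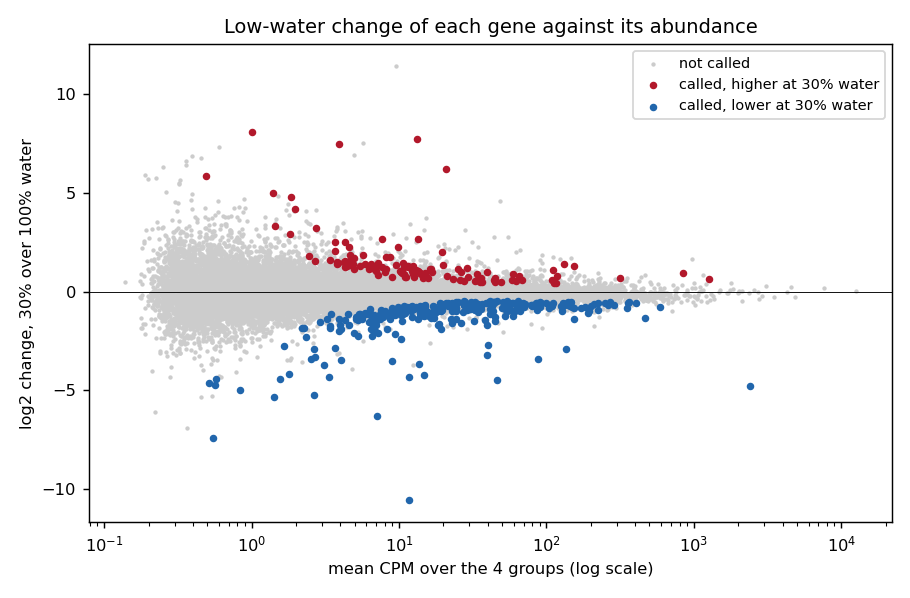
Each point is a gene, with its mean CPM over the 4 groups on the x axis (log scale) and its log2 change at 30% over 100% water on the y axis, red for the 118 higher and blue for the 295 lower genes. Called genes of low abundance lie far from 0, and the lower genes extend to a log2 change of -10.57.

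Together, the 295 lower genes took 9321 to 10027 CPM in the combined-stress libraries, against 17939 to 23548 CPM in the heat-stress libraries. At 28 °C they took 11381 to 12417 CPM in the water-deficit libraries and 20637 to 25993 CPM in control. A large part of the difference at 28 °C lay in 1 gene, the most abundant of the 295. It had 655, 1130 and 141 CPM in water deficit, against 7850, 6960 and 4430 CPM in control. Its own change at 28 °C did not pass (edgeR adjusted p = 0.493). The 118 higher genes took 7069 to 9246 CPM in combined stress, against 3746 to 4331 CPM in heat stress, and 4124 to 5589 CPM in water deficit, against 2631 to 3149 CPM in control. The sums of low-water and fully watered libraries did not overlap at either temperature, which the selection of these genes favours.

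Named genes are the largest rises and falls among called genes that average 10 CPM or more at one water supply and libraries that do not overlap at either temperature. This rule was met by 49 higher and 181 lower genes, and 2 are named in each direction because the IDs carry no names. Over all genes tested, the libraries were separated in this way upward in 289 genes (0.746%) and downward in 577 (1.49%).

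GLYMA_07G048600 was nearly absent from pods at low water. It had 0 counts in all 3 combined-stress libraries, against 5.91, 1.65 and 12.2 CPM in heat stress. At 28 °C it had 0, 0 and 1 count in water deficit (at most 0.0573 CPM), against 45.5, 43.5 and 32.6 CPM in control. No low-water library came near any fully watered one. The level was at least 47.2-fold lower in combined stress than in heat stress, taking 3 counts per library as the floor. The ratio of control to water deficit was 2230 (95% exact interval 400 to 88100, counting error only). The fitted log2 change over both temperatures was -10.57 (SE 0.674, edgeR adjusted p = 3.46e-06). That value depends on the prior count of the model, because a group is at 0. It was called in each of the 12 leave-one-out fits and under the 11 other settings tried. It was also lower at 38 °C than at 28 °C in the additive fit (log2 change -2.61, edgeR adjusted p = 0.00156).

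GLYMA_02G028800 was also near 0 at low water. It had 0, 0.276 and 0.0398 CPM in combined stress, against 4.49, 1.00 and 11.5 CPM in heat stress. It had 0.315, 0.220 and 0.172 CPM in water deficit, against 28.1, 23.1 and 16.1 CPM in control. The 6 low-water values rest on at most 6 counts each, and all lie below the lowest fully watered library. The mean of 0.236 ± 0.0728 CPM in water deficit was 95.2-fold lower than the 22.4 ± 6.03 CPM in control (SD, n = 3 each). The combined-stress mean of 0.105 ± 0.149 CPM, against 5.67 ± 5.36 CPM in heat stress (SD, n = 3 each), rests on 6 counts in all and lies below the floor of 3 counts per library. The level was at least 40.7-fold lower in combined stress by that floor. The log2 change over both temperatures was -6.28 (SE 0.637, edgeR adjusted p = 0.000314), and the gene was called in each of the 12 leave-one-out fits.

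GLYMA_08G341000 was the largest rise under the naming rule. It had 81.8, 58.1 and 10.3 CPM in combined stress, against 0 counts in all 3 heat-stress libraries. It had 7.03, 1.32 and 0.687 CPM in water deficit, against 0, 0.513 and 0 CPM in control. The low-water libraries spread widely at both temperatures, and the gap between the lowest water-deficit library and the highest control library was small. Combined stress was at least 313-fold higher than heat stress, a change that passed at 38 °C (edgeR adjusted p = 0.0384). At 28 °C the mean of water deficit was 17.6-fold that of control, which rests on 10 counts in 1 control library, and the change did not pass (edgeR adjusted p = 1). The log2 change was 7.74 (SE 1.44, edgeR adjusted p = 0.0436), a value that depends on the prior count. The call held in 2 of the 12 fits that left out a library, those without water deficit replicate 2 (adjusted p = 0.0327) and 3 (adjusted p = 0.0421). The other 10 gave adjusted p-values from 0.059 to 0.129, and limma-voom gave 0.383.

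GLYMA_18G176100 rose over both temperatures, and its levels were higher in combined stress than in any other group. It had 19.3, 34.3 and 17.1 CPM in combined stress, against 1.51, 2.77 and 0.915 CPM in heat stress. It had 4.72, 3.30 and 3.49 CPM in water deficit, against 0.455, 1.64 and 2.13 CPM in control. Every low-water library lay above every fully watered one. The means were 23.6 ± 9.36 and 1.73 ± 0.948 CPM in combined and heat stress, a 13.6-fold difference, and 3.84 ± 0.771 and 1.41 ± 0.861 CPM in water deficit and control, a 2.73-fold difference (SD, n = 3 each). The change passed at 38 °C (log2 3.77, edgeR adjusted p = 0.000319) and did not pass at 28 °C (log2 1.46, edgeR adjusted p = 0.760). The log2 change over both temperatures was 2.66 (SE 0.506, edgeR adjusted p = 0.0287). The interaction of water and temperature did not pass for it (log2 2.30, edgeR adjusted p = 0.203). The call was lost without control replicate 1 (adjusted p = 0.0607), heat stress replicate 1 (0.0834), 2 (0.0923) or 3 (0.0523), and combined stress replicate 1 (0.0596) or 3 (0.0574).

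**Figure D2:**
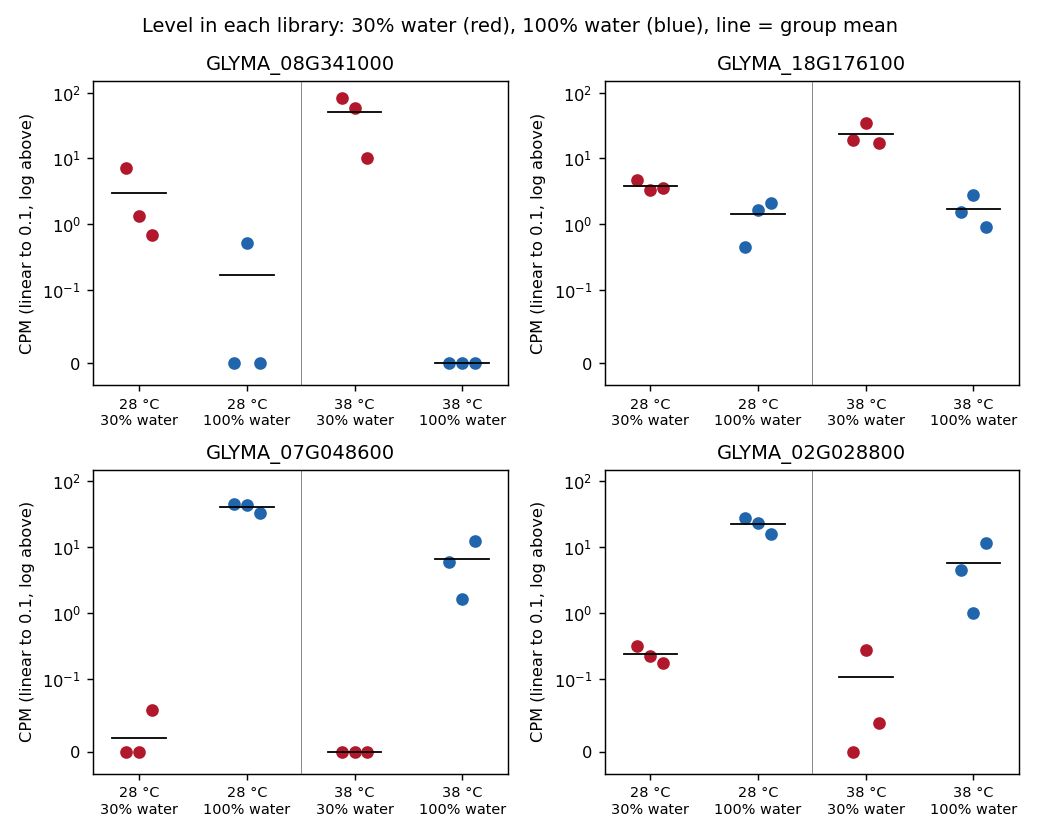
CPM of the 4 named genes in each library (y axis linear up to 0.1 and logarithmic above), at 30% (red) and 100% water (blue) for each day temperature, with a line at each group mean. All 6 libraries at 30% water lie above the fully watered libraries for GLYMA_08G341000 and GLYMA_18G176100, and below them for GLYMA_07G048600 and GLYMA_02G028800.

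The low-water effect was then taken apart by temperature, in a fit of 4 group means over the same libraries. At 28 °C, water deficit against control changed 37 genes (0.0955%), of which 2 were higher (0.00516%) and 35 lower (0.0904%). At 38 °C, combined stress against heat stress changed 2032 genes (5.25%), of which 634 were higher (1.64%) and 1398 lower (3.61%). The count at 28 °C was 17, 4 and 21 without control replicates 1, 2 and 3, and 23 and 9 without water deficit replicates 2 and 3. The count at 38 °C was 947, 546 and 1111 without combined stress replicates 1, 2 and 3, and 1151 without heat stress replicate 3. With library size in place of TMM factors, the calls at 38 °C were 820 higher and 944 lower.

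Most of the 413 genes passed the test at 38 °C and few at 28 °C. Of the 118 higher genes, 98 were called in the same direction at 38 °C and 2 at 28 °C, both of them at both temperatures, while 20 were called at neither. Of the 295 lower genes, 236 were called at 38 °C, 32 at 28 °C and 25 at both, while 52 were called at neither. The sign of the change was the same at both temperatures for 117 of the 118 and for all 295. Selection in the additive fit nearly fixes this, and the share over all genes is not given.

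The called genes had larger median changes at 38 °C. The median log2 change of the higher genes was 0.75 at 28 °C (quartiles 0.52 and 1.19) and 1.43 at 38 °C (quartiles 0.99 and 1.98). The lower genes had medians of -0.73 at 28 °C (quartiles -1.27 and -0.46) and -1.14 at 38 °C (quartiles -1.58 and -0.85). The change was larger in size at 38 °C for 99 of the 118 and 228 of the 295, against 63.0% of all genes tested. Without water deficit replicate 2, a check added after the data were seen, the medians of the same genes were 0.76 and 1.45 for the higher and -0.71 and -1.12 for the lower genes. The difference between temperatures passed its own test, the interaction, for 1 of the 413 genes, while 33 of the higher and 95 of the lower genes had an unadjusted interaction p under 0.05, against 4107 (10.6%) of all genes tested. The same libraries chose the 413 genes. Over all genes, 54 interactions passed (0.139%), 11 of them positive (0.0284%) and 43 negative (0.111%).

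**Figure D3:**
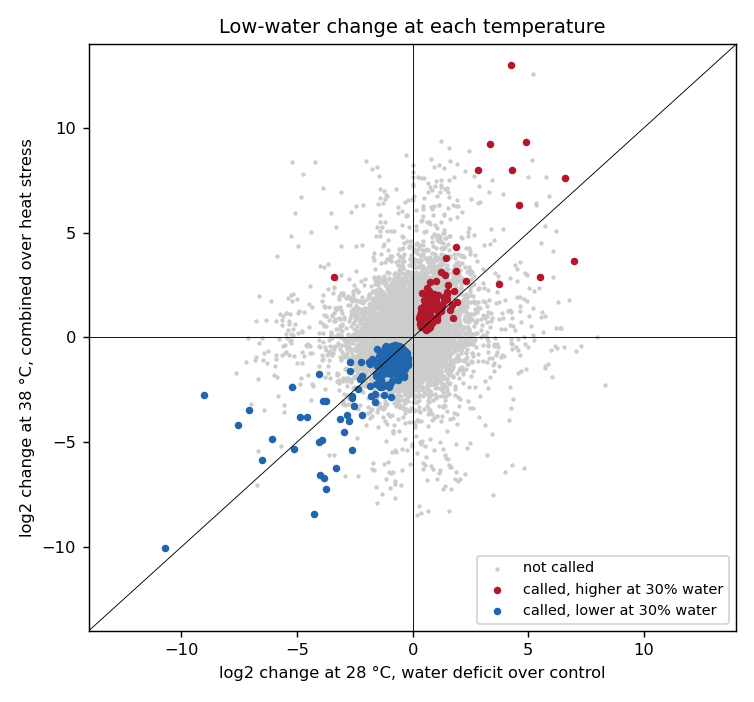
Log2 change at 28 °C (water deficit over control, x axis) and at 38 °C (combined over heat stress, y axis) for each gene, with called genes of the additive fit in red (118 higher) and blue (295 lower) and the diagonal marking equal changes. Nearly all called genes lie in the quadrants of equal sign, which their selection in the additive fit favours. The change is larger at 38 °C for 99 of the red and 228 of the blue points, against 63.0% of all genes tested.

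The contrasts at the 2 temperatures share no library, so the calls of one can be followed in the other. Of the 634 genes called higher at 38 °C, 471 (74.3%) were also higher at 28 °C, where 49.4% of all genes were higher. Their median log2 change was 1.47 at 38 °C and 0.29 at 28 °C. Of the 1398 called lower at 38 °C, 984 (70.4%) were also lower at 28 °C, where 50.5% of all genes were. Their median was -0.91 at 38 °C and -0.11 at 28 °C. The medians were thus smaller in the libraries at 28 °C than in those that selected the genes.

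An unadjusted p under 0.05 in the same direction at 28 °C was found for 74 of the 634 (11.7%), against 1.81% of all genes tested, and in the opposite direction for 6. For the 1398 lower genes these counts were 188 (13.4%), against 2.54% of all genes, and 9. A check without water deficit replicate 2 was added after the data were seen. In it 489 of the 634 (77.1%) and 1053 of the 1398 (75.3%) kept their sign at 28 °C. Of all genes, 49.9% were higher and 50.1% lower there. An unadjusted p under 0.05 in the same direction was found for 107 (16.9%) and 196 (14%), against 2.21% and 2.17% of all genes. In the other direction, 33 of the 35 genes called lower at 28 °C were also lower at 38 °C, 32 of them with an unadjusted p under 0.05, where 11.4% of all genes had such a fall. Their median log2 change was -1.33 at 28 °C and -1.43 at 38 °C. Both genes called higher at 28 °C were higher at 38 °C with an unadjusted p under 0.05, which 7.71% of all genes had. Genes are not independent replicates, and the shared scaling and spread of the fit connect the contrasts.

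**Figure D4:**
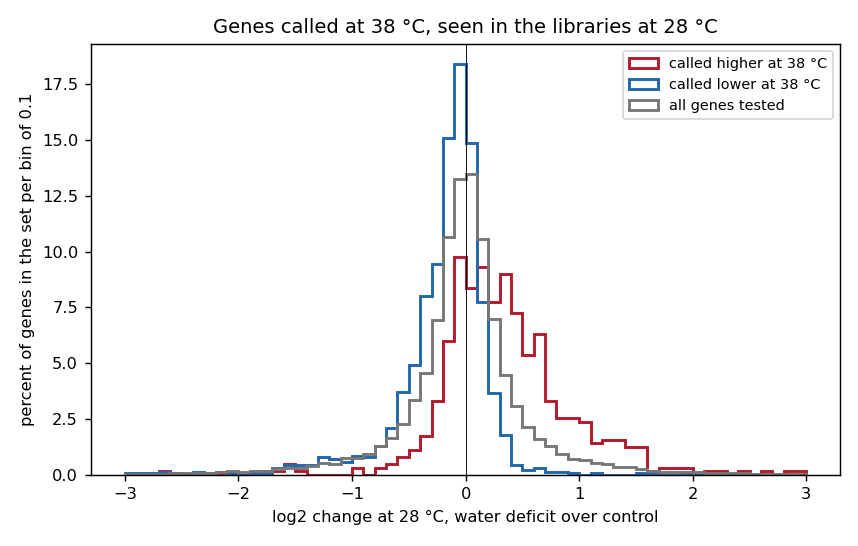
Percent of genes per bin of 0.1 (y axis) by their log2 change at 28 °C, water deficit over control (x axis, drawn from -3 to 3), for the 634 genes called higher at 38 °C (red), the 1398 called lower (blue) and all genes tested (grey). The red curve is shifted to the right of 0 (median 0.29) and the blue one slightly to the left (median -0.11).

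Many genes changed by low water also changed with temperature. Of the 118 higher genes, 43 were called higher and 6 lower at 38 °C than at 28 °C, and 69 were not called for temperature. Of the 295 lower genes, 15 were called higher, 96 lower and 184 were not called. Over all genes tested, 5.79% were called higher and 7.63% lower at 38 °C. Both effects come from the same 12 libraries, in which each temperature holds both water supplies equally. A gene that is extreme mainly in combined stress gains a water and a temperature effect in one direction from the same values. The overlap is therefore partly built in, and it is not separate evidence that these genes respond to both treatments.

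The selection nearly fixes which water supply holds the highest and the lowest group mean of the called genes. The counts below describe which temperature held the extreme. Shares over all genes are not given, so the counts do not show a trait particular to the called genes. Among the 118 higher genes, combined stress had the highest mean in 102 and water deficit in 16. The lowest mean was in control for 68, in heat stress for 49 and in water deficit for 1. Among the 295 lower genes, combined stress had the lowest mean in 231 and water deficit in 64. The highest mean was in control for 181 and in heat stress for 114.

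Few genes had almost no counts at one water supply and clear counts at the other. Such genes pass the filter for low counts only through the water supply where they have counts. Of 38737 genes tested, 3 had at most 3 counts in every low-water library and a mean of at least 1 CPM at full water. The test called 2 of these lower. In the other direction, 4 genes had at most 3 counts in every fully watered library and a mean of at least 1 CPM at low water, and 1 was called. All 4 were higher in combined stress than in water deficit.

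The lower genes also lay near each other in ID order. The IDs hold a chromosome number and a serial number that runs in steps of 100, and 55589 of 57147 have this form. Coordinates were not used. Of the 295 lower genes, 48 (16.3%) had another lower gene within 5 places, against 4.99% of all genes tested with such an ID. Of the 117 higher genes with such an ID, 2 (1.71%) had another higher gene within 5 places, against 2.32%. No lower gene had a higher one within 5 places. Counting only adjacent IDs, a check added after the data were seen, 30 of the 295 (10.2%) had a lower neighbour, against 1.04%. Within 10 places, also added later, 58 of the 295 (19.7%) had one, against 9.64%. Without water deficit replicate 2 the share within 5 places was 67 of 501 (13.4%), against 8.60%. How reads shared by near-identical copies were counted is not given in the sources used here, and levels of such genes are uncertain.

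The 48 genes formed 20 runs, of which 15 held 2 genes. The longest held 5 called genes among 7 tested over 9 consecutive IDs of chromosome 2, GLYMA_02G028800 at its end. The log2 changes of the 5 lay between -6.28 and -2.42, and 4 of them were called in each of the 12 leave-one-out fits. One gene of this run, 6 places before GLYMA_02G028800, was the most abundant of all 295 lower genes. It had 27.6, 41.0 and 34.2 CPM in combined stress, against 2720, 1010 and 4010 CPM in heat stress. It had 655, 1130 and 141 CPM in water deficit, against 7850, 6960 and 4430 CPM in control. Its log2 change was -4.77 (SE 0.822, edgeR adjusted p = 0.035), and it was called in 4 of the 12 fits that left out a library. At 38 °C its change passed (log2 -6.24, edgeR adjusted p = 0.00712) and at 28 °C it did not (log2 -3.32, edgeR adjusted p = 0.493), although the groups did not overlap at either temperature. The interaction did not pass (edgeR adjusted p = 0.367).

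The 5 genes together took 31.5, 43.4 and 37.8 CPM in combined stress, against 2788, 1036 and 4108 CPM in heat stress. They took 667, 1151 and 147 CPM in water deficit, against 8125, 7124 and 4528 CPM in control. The abundant member makes up most of these sums. The 2 other tested genes of the run had log2 changes of -2.23 (edgeR adjusted p = 0.057) and -0.17 (edgeR adjusted p = 0.967).

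The second longest run was of 4 adjacent IDs of chromosome 8, with log2 changes from -3.70 to -3.23. The most abundant of the 4 had 3.35, 2.93 and 4.66 CPM in combined stress, against 76.1, 31.3 and 33.9 CPM in heat stress. It had 27.4, 5.01 and 7.61 CPM in water deficit, against 83.5, 96.3 and 104 CPM in control. Its levels at low water lay below those at full water at each temperature. Its log2 change was -3.23 (SE 0.459, edgeR adjusted p = 0.0126), and it was called in 11 of the 12 fits that left out a library.

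GLYMA_08G341000 had no called gene within 10 places. The gene 5 places after it averaged 96.1 CPM at low water and 1.46 CPM at full water without passing the test (log2 change 4.58, edgeR adjusted p = 0.274). GLYMA_07G048600 and GLYMA_18G176100 had no called neighbour within 10 places either.

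**Figure D5:**
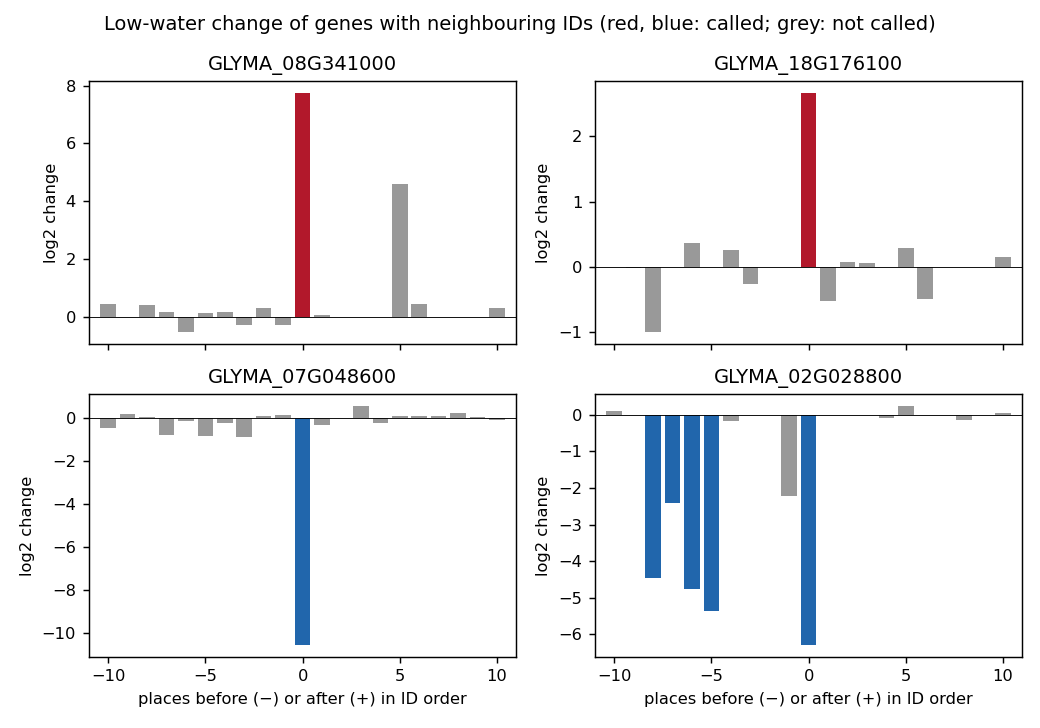
Log2 change at 30% over 100% water (y axis) of tested genes up to 10 places before or after each of the 4 named genes in ID order (x axis), red or blue where called and grey where not. Only GLYMA_02G028800 has called neighbours, 4 of them, all lower.

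The most abundant of the 118 higher genes changed less than the named ones. It had 2360, 2620 and 1810 CPM in combined stress, against 1350, 1440 and 1030 CPM in heat stress. It had 1080, 878 and 723 CPM in water deficit, against 780, 602 and 618 CPM in control. The groups overlapped at 28 °C and not at 38 °C. Its log2 change was 0.63 (SE 0.139, edgeR adjusted p = 0.0346), called in 4 of the 12 fits that left out a library. It rose with temperature as well (log2 change 1.14, edgeR adjusted p = 2.73e-05).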

How the data were processed

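The authors deposited read counts per gene and FPKM (fragments scaled by gene length and by mapped fragments) for 12 libraries. HISAT2 2.2.1 is named in the submitters' processing notes. The counting tool, strand setting, annotation and genome build are not given in the sources used here. All columns were matched to samples by label.

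Of 57147 IDs, 38737 passed edgeR's filter for low counts over the 4 groups and were tested with edgeR 4.0.16 (R 4.3.3), with TMM factors from 0.951 to 1.06 and Benjamini-Hochberg adjustment over all of them. The SE is the log2 change divided by the square root of F. A floor of 3 counts was 0.114 to 0.177 CPM per library. Intervals and floors cover counting error only. The interval takes counts as independent and pools the libraries of a group. The excess of even numbers in every library was not allowed for. The genes tested were kept the same in fits that left out a library. Alternatives used DESeq2 1.42.0, limma 3.58.1 and, for FPKM, log2(FPKM + 1) over 31734 genes with a mean of at least 1. Scripts were tested on simulated data.

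Of the IDs, 0 matched the RefSeq gene table of assembly Glycine_max_v4.0, so that the planned gene lists, tissue markers and promoter motifs were not analysed here. Sequences are not shown for the same reason. The comparison, lists and rules were chosen with earlier results of these data known. The named-gene rule takes the 2 largest rises and falls, as stated with them. The genes described by their place in a run or as the most abundant were chosen after their values were seen.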

Additional observations from a re-analysis of the deposited data

Results flagged for a closer look

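The effect of low water differed between temperatures for 54 genes by edgeR's interaction test (11 positive, 43 negative), and 1 of these was among the 413 genes called over both temperatures. The low-water change was negative at 38 °C and positive at 28 °C in 23 of the 54, and the reverse held for 8. The other 23 had the same sign and a larger change at 38 °C. The median log2 change of the 54 was -0.01 at 28 °C and -1.33 at 38 °C, and 52 were called at 38 °C and 2 at 28 °C. Leaving out 1 library changed the count by more than 1.5 times in 11 of 12 fits. It was 136, 0 and 0 without control replicates 1, 2 and 3, 145, 5 and 2 without water deficit replicates 1, 2 and 3, 106 and 0 without heat stress replicates 2 and 3, and 11, 0 and 33 without combined stress replicates 1, 2 and 3. In the fits with 0 calls, at least 2962 genes had an unadjusted p under 0.05, and DESeq2 called 483 on all libraries.

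Among the named genes, a library stood far from the others of its water supply in 2 cases, both near 0. GLYMA_07G048600 had 0.0573 CPM (1 count) in water deficit replicate 3 and 0 in the other 5 low-water libraries. GLYMA_08G341000 had 0.513 CPM (10 counts) in control replicate 2 and 0 in the other 5 fully watered libraries. With 5 of 6 libraries at 0, any count in the remaining one sets it apart in this way, so both cases are given as values only.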

How the results depend on the processing

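For low water over both temperatures (413 calls), DESeq2 gave 1267 calls, limma-voom with library weights 684, the 4 group means 1114, no term for temperature 75, an adjusted p under 0.01 98 and an absolute log2 change of at least 1 202. Leaving out 1 library gave from 134 to 839. The other settings (both other scalings, both filters, limma-voom, FPKM, the 10 most counted genes left out) gave between 289 and 599. Lower genes outnumbered higher ones in every setting, but the split moved. It was 143 higher and 239 lower with library size alone and 528 and 739 with DESeq2. With limma-voom it was 254 and 345, and without control replicate 2 it was 218 and 248. At 28 °C (37 calls), DESeq2 gave 123, and leaving out 1 library 4 to 39. At 38 °C (2032 calls), DESeq2 gave 3139, and leaving out 1 library 546 to 2595. For the interaction (54 calls), DESeq2 gave 483, library size alone 21, and leaving out 1 library 0 to 145. The cause was not tested.

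Same-numbered libraries at one temperature did not deviate together, with correlations of their deviations from -0.219 to 0.0339 over 6 pairs. Of 6 low-water libraries, 1 correlated best with its own number. Over all 18 same-numbered pairs of any 2 groups the highest correlation was 0.142. With 3 libraries per group, and water deficit replicate 2 far from its group, this check cannot exclude a pairing. With the replicate number as a block, 318 genes were called over both temperatures (287 of the 413), 34 at 28 °C, 1723 at 38 °C and 36 for the interaction. No named gene changed sign in 23 alternatives each. The calls of GLYMA_08G341000 and GLYMA_18G176100 were lost in 14 and 7 of them, and those of the 2 lower genes in none. With 3 libraries per group, changes in low counts are limited by depth and spread.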
